A study of Homo sapiens with 10 samples.

Results

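The regions described here are 3714 peaks of polyadenylated RNA ends that lay between 0.6 and 10 kb past the annotated ends of protein-coding genes in IMR-32, a neuroblastoma line of the adrenergic type whose MYCN gene is amplified. They were taken from a single list of 178837 peaks by position alone. The summit of a peak had to lie in no gene body and in no window from 200 bp before to 600 bp after a transcript end of GENCODE 44, 601 to 10000 bp downstream of the end of a protein-coding gene on the strand of that gene, and more than 3 kb upstream of any protein-coding start. No read count, motif or gene name was used to choose them. Of the 14608 peaks on the assembled chromosomes that lay outside genes and end windows, 25.4% met this rule (95% Wilson interval, 24.7% to 26.1%). They fell behind 2596 genes, which is 22.3% of the 11629 protein-coding genes with any sequence that met the rule. For 3320 peaks the assigned gene was the only candidate, and for 394 a gene on the other strand also ended within reach.

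RNA had been sequenced from its poly(A) tail, so that reads pile up just upstream of the cleavage site. The 10 libraries came from IMR-32 cells transduced with pLKO.1 lentivirus and selected with puromycin, the control included. Knockdown of CDK12 used the shRNAs sh22 and sh98, knockdown of CDK13 used sh701 and sh704, and an shRNA against GFP, which these cells lack, was the control, with 2 libraries for each of the 5 shRNAs. The libraries were reduced to the size of the smallest, merged and searched for peaks together, which means that the list holds no value for any single library, no group can be compared with another, and neither the depth nor the spread between replicates of a peak is known. The list also holds no strand. Intervals given below are 95% intervals over peaks, genes or bases and cover counting error only, because neighbouring peaks share reads, sequence and genes and are not replicates. All 10 markers of adrenergic neuroblastoma cells that were looked up had a peak at an annotated end, with 16 reads for ISL1 and 114 reads for PHOX2A. Peaks in end windows of only the plus or only the minus strand reached at most 94 reads. The peak credited to PHOX2A therefore also lay in the end window of a gene on the other strand. Which of these genes its reads came from cannot be told without strand. Of 5 markers of other cell types, PTPRC of leukocytes and PECAM1 of endothelium had none, and ALB, EPCAM and COL1A1 had 3, 13 and 14 reads.

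Most human messages end where the cleavage and polyadenylation machinery reads a hexamer, usually AATAAA or ATTAAA, a short way upstream of the cut and a U- or GU-rich stretch downstream of it. RNA polymerase II continues past this site before it is released, and transcripts that are not cleaved at the annotated end can be cut at later sites, which gives longer 3′ ends. CDK12 and CDK13 are kinases of the polymerase's C-terminal domain and act during elongation. Libraries primed with oligo(dT) carry a known second source of reads, since the primer can also anneal to runs of A inside a transcript.

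The sequence at the downstream edge was therefore read for every peak. Below are stretches of 45 bases up to and including the 3′ edge and 20 bases after it, read on the strand of the gene from the GRCh38 reference, all from peaks with no RefSeq gene at the summit and no match to a transcript of another gene. The first set shows the 4 strongest peaks of this kind with a hexamer and fewer than 7 A in the 10 bases after the edge, after the genes DDRGK1 (chr20:3188723-3188787, minus strand), ADAM10 (chr15:58587047-58587111, minus), ASS1 (chr9:130502319-130502383, plus) and DCP1B (chr12:1939606-1939670, minus), and one from each of 2 genes with most peaks, DDX1 (chr2:15643513-15643577, plus) and BCAS2 (chr1:114566681-114566745, minus). Capitals mark each AATAAA or ATTAAA whose first base lay 40 to 10 bp upstream of the edge.
DDRGK1: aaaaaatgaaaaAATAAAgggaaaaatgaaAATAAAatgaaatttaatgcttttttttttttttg
ADAM10: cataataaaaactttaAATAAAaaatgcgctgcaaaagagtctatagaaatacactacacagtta
ASS1: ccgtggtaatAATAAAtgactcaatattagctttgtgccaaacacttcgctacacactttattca
DCP1B: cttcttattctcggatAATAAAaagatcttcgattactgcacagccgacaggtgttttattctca
DDX1: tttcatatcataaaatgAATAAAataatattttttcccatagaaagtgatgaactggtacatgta
BCAS2: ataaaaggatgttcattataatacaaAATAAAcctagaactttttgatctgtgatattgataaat

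The second set shows 3 strong peaks whose edge ran into genomic A, after ASCC1 (chr10:72092081-72092145, minus), RRM2 (chr2:10213055-10213119, plus) and SOCS6 (chr18:70333736-70333800, plus), with the 10 bases after the edge in capitals. The stretches of RRM2 and SOCS6 also hold AATAAA in the window upstream of the edge, left in lower case. That of ASCC1 holds AGTAAA and AATACA there, rarer hexamers that were searched in the paper.
ASCC1: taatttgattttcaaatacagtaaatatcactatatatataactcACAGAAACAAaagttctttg
RRM2: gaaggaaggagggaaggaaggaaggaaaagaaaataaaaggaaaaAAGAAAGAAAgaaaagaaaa
SOCS6: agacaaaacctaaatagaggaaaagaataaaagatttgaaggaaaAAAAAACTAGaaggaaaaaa

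The last set shows 2 strong peaks with neither AATAAA or ATTAAA in the window nor an A-rich edge on either strand, after ZNF669 (chr1:247098011-247098075, minus) and D2HGDH (chr2:241772573-241772637, plus). The stretch of ZNF669 holds CATAAA in the window, a rarer hexamer that was searched in the paper.
ZNF669: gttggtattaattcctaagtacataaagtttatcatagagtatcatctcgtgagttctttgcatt
D2HGDH: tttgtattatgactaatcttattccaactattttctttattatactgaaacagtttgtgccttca

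Peaks past gene ends were 6.02 times as dense as peaks far from genes. They numbered 49.5 per Mb of sequence that met the rule (47.97 to 51.2, exact Poisson interval), against 8.24 per Mb (8.06 to 8.42) for 8131 peaks more than 10 kb from any protein-coding gene. The interval of the ratio was 5.79 to 6.26. Sequence 3 to 10 kb upstream of protein-coding starts held 22.7 peaks per Mb, so the downstream side was 2.18 times as dense as the upstream side (2.04 to 2.34). At the outer limit of the rule nothing in the values changed abruptly. The peak of FOXR1 at 9996 bp had 19 reads and the first one outside, of NFAM1 at 10004 bp, had 5. The last 1 kb inside the limit held 269 peaks at 41.8 per Mb and the next 1 kb held 260 at 41.6 per Mb, both with a median of 7 reads. At the inner limit the nearest member lay 603 bp past the end of ACTR5 and had 18 reads.

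In height these were low peaks. The pileup, meaning the number of distinct read positions stacked at the summit over all 10 libraries, had a median of 9, lay between 5 and 18 for the middle 80% of the members, and ranged from 3 to 67. Peaks far from genes had a median of 7, all peaks of the list a median of 9, and the 27349 peaks at an annotated protein-coding end on 1 strand a median of 16. A −log10 q of 20 or more was reached by 96 members, or 2.58% (2.12% to 3.15%), against 24.7% of the peaks at annotated ends. The median width was 104 bp, close to the 100 bp to which each read had been extended. As 100 bp was also the smallest width of any member, the width does not give the spread of the read ends.

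A poly(A) signal preceded the edge more often on the gene's own strand than on the other. AATAAA or ATTAAA began 40 to 10 bp upstream of the 3′ edge in 1143 of 3714 members, or 30.8% (29.3% to 32.3%). When the same peaks were read on the opposite strand from their other edge, 341 held one, or 9.18% (8.29% to 10.2%). The difference was 21.6 points (19.8 to 23.4, paired Newcombe interval). Over all 74956288 positions that met the rule, 4.28% had either hexamer in such a window. AATAAA made up 1158 of the matches and ATTAAA 300. The matches clustered at 1 distance. Their first base lay most often 21 bp before the edge (120 matches), and 872 matches lay 15 to 25 bp before it, against 206 on the opposite strand. Members were in this respect between the background and annotated ends, where 50.3% of peaks had a signal, 19.5 points more than past the ends (17.9 to 21.1). Any of the 12 hexamers searched in the paper began in the same window in 46.3% of members. The share was 21.8% on the opposite strand and 16.3% over all positions that met the rule.

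**Figure D1:**
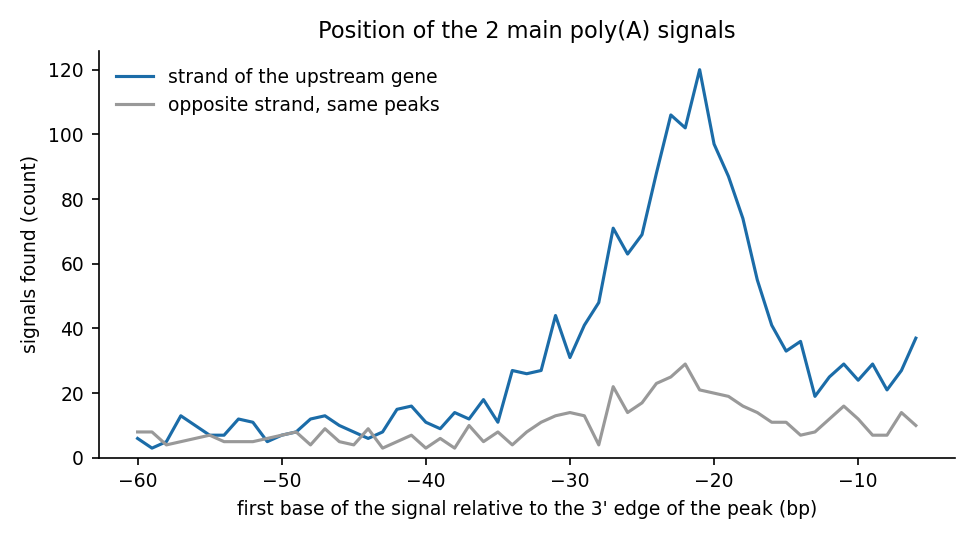
Number of AATAAA and ATTAAA hexamers by the distance of their first base from the 3′ edge of the 3714 peaks, read on the strand of the gene (blue) and on the opposite strand of the same peaks (grey). The blue line rises to 120 matches at 21 bp upstream and the grey line stays under 30.

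Genomic A after the edge was the more frequent feature. At least 7 of the 10 bases after the 3′ edge were A in 1555 members, or 41.9% (40.3% to 43.5%), against 400 on the opposite strand, or 10.8% (9.81% to 11.8%), a difference of 31.1 points (28.999 to 33.2). Among all positions that met the rule the share was 2.64%. Peaks at annotated ends had it in 21.7%, which was 20.2 points less than past the ends (18.5 to 21.8). A long stretch of 25 bases with at most 3 other than A stood within 50 bp downstream of 292 members, or 7.86%, against 1.70% on the opposite strand. Strength went the other way. Of the 96 members with a −log10 q of 20 or more, 50 had a signal, or 52.1% (42.2% to 61.8%), and 16 were A-rich, or 16.7% (10.53% to 25.4%).

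The members were accordingly divided into 3 classes. A signal with fewer than 7 A after the edge was found in 952, called signal peaks here, 1555 were A-rich whatever lay upstream, and 1207 had neither. A signal here means AATAAA or ATTAAA only, so peaks with neither feature can hold a rarer hexamer. Their median pileups were 11, 9 and 10 reads. Sequence outside the windows that defined the classes differed as well. From 11 to 40 bp after the edge T made up 38.2% of the bases of signal peaks, 28.7% of those with neither and 18.3% of A-rich peaks, in which A still made up 50.9%. TGTA, the core of the motif bound by the cleavage factor I subunit NUDT21 upstream of many cleavage sites, was found 100 to 40 bp before the edge in 45.5% of signal peaks (42.3% to 48.7%), 31.0% of peaks with neither (28.4% to 33.7%) and 20.6% of A-rich peaks (18.6% to 22.7%). Its share over all positions that met the rule was 23.5%.

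**Figure D2:**
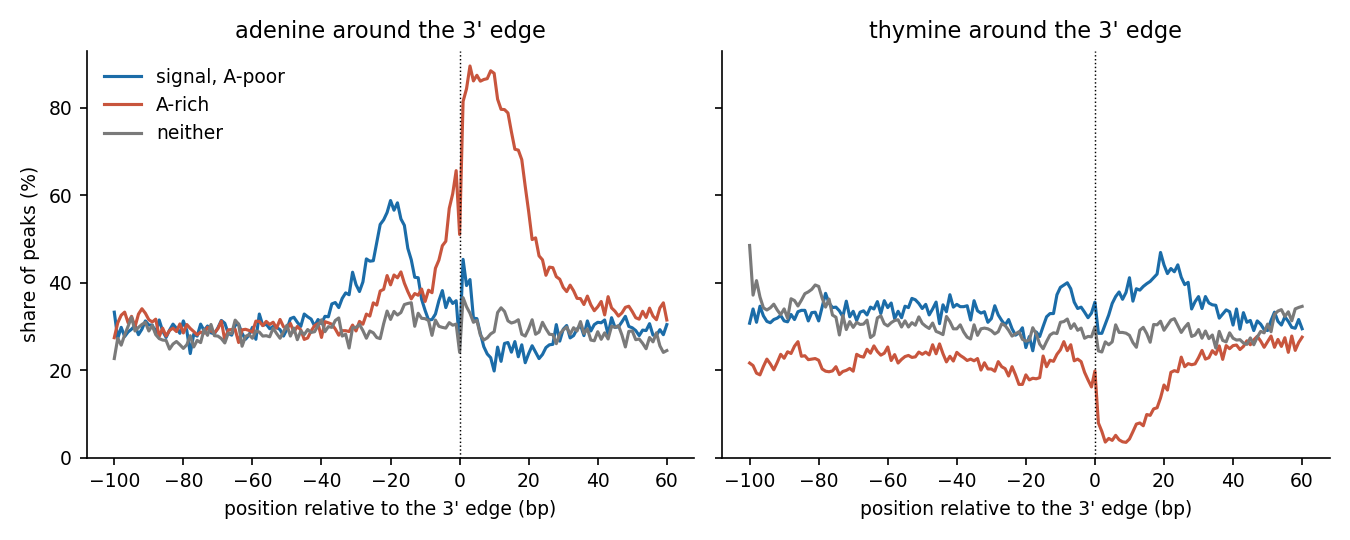
Share of peaks with A (left) and with T (right) at each position from 100 bp upstream to 60 bp downstream of the 3′ edge, for 952 signal, 1555 A-rich and 1207 other peaks, read in the direction of the gene. Signal peaks show a rise in A about 20 bp upstream and a rise in T downstream, and A-rich peaks show A after the edge, both of which the classes were partly defined on.

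Peaks with neither feature were read again on the other strand, since transcripts from that strand would put the edge at the opposite end. Of the 1207, 335 were A-rich on the opposite strand, or 27.8%, and 196 held a signal there, or 16.2%, while 676 had neither feature on either strand. Which strand the reads came from cannot be told from a list without strand. The 394 members within reach of genes on both strands had a signal in 27.7% on the strand of the nearer gene and in 20.1% on the other, a difference of 7.61 points (1.22 to 13.9).

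Compared with peaks far from genes, whose strand is not known, signals on either strand were more frequent and A-runs less frequent. A signal with few A after it was found on at least 1 strand of 31.9% of members and of 21.5% of far peaks, a difference of 10.4 points (8.64 to 12.1). A-rich edges on at least 1 strand were found in 52.1% of members and 66.9% of far peaks, a difference of -14.9 points (-16.8 to -12.9). Peaks 3 to 10 kb upstream of protein-coding starts were closer to the members. Of these, 27.2% had a signal with few A after it, a difference of 4.65 points (1.59 to 7.60). A-rich edges were found in 61.6% of them, a difference of -9.51 points (-12.7 to -6.20).

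Distance from the gene end changed the makeup of the peaks. Signal peaks stood at 17.0 per Mb in the first 400 bp of the range (601 to 1000 bp), 13.5 per Mb from 2001 to 3000 bp and 9.32 per Mb (7.11 to 11.99) from 9001 to 10000 bp. A-rich peaks moved from 17.2 per Mb at 601 to 1000 bp to 21.1 at 4001 to 5000 bp, 30.9 at 5001 to 6000 bp and 20.8 at the far end. Per Mb there were thus 1.42 times as many A-rich peaks from 5 to 10 kb as from 0.6 to 5 kb (1.29 to 1.57), and 0.854 times as many signal peaks (0.750 to 0.973). Counted per 1000 positions with an A-rich downstream side, A-rich peaks numbered 0.774 at 4001 to 5000 bp, 1.14 at 5001 to 6000 bp and 0.737 at 9001 to 10000 bp.

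The step at 5 kb coincided with a step in the local background against which each pileup had been called. By default MACS2 takes this background from the reads in a window of 10 kb around the peak, which reaches 5 kb to each side, and the gene end leaves that window at 5 kb. Behind genes whose end peak had at least 20 reads, the median background of the members fell from 0.94 reads at 4001 to 5000 bp to 0.505 reads at 5001 to 6000 bp, and behind genes without an end peak it was 0.44 and 0.355 reads. The median pileup fell from 10 to 8 reads over the same step. Among members with a pileup of at least 15 reads, a limit chosen after the data were seen, the order was reversed. A-rich peaks then stood at 3.61 per Mb from 0.6 to 5 kb and 2.28 per Mb from 5 to 10 kb, a ratio of 0.63 (0.473 to 0.834), and the ratio was 0.388 (0.289 to 0.516) for signal peaks and 0.392 (0.292 to 0.521) for peaks with neither. All 528 and 212 such members gave a ratio of 0.456 (0.387 to 0.535).

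**Figure D3:**
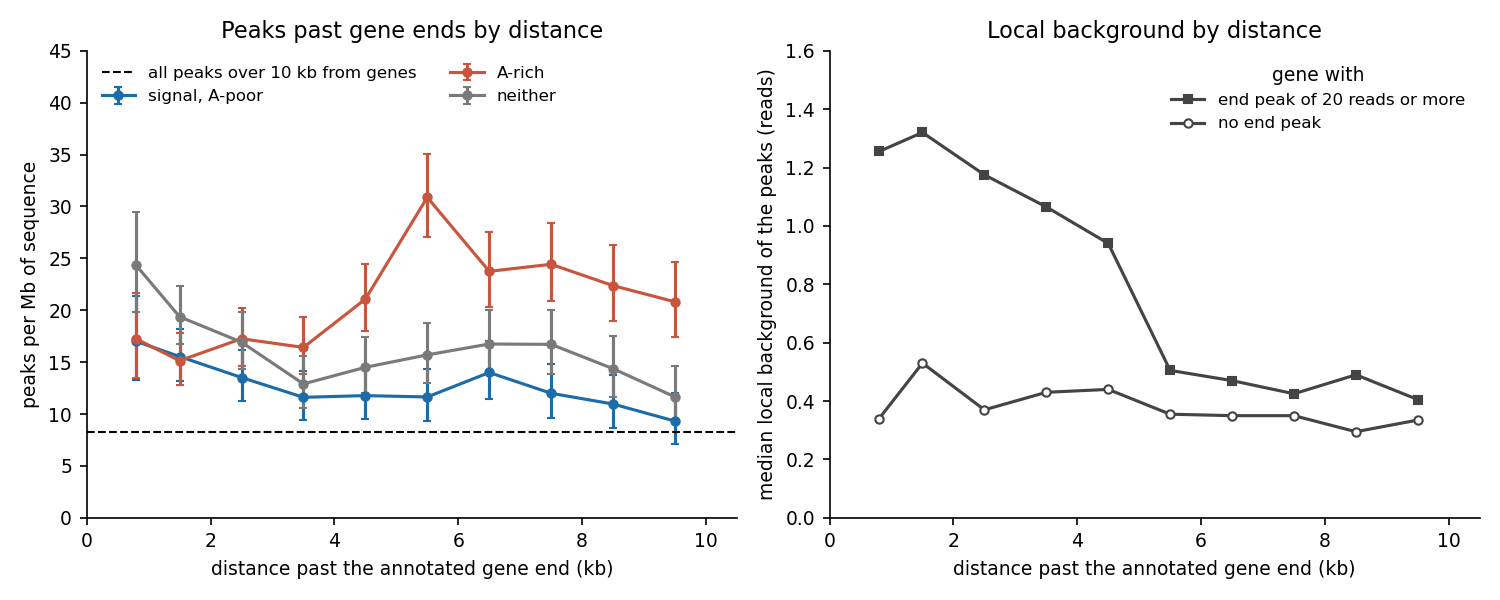
Left, peaks per Mb of sequence by distance past the annotated gene end for the 3 classes, with 95% Poisson intervals and the density of all peaks more than 10 kb from genes (dashed, 8.24 per Mb). Right, median local background of the members behind genes with an end peak of at least 20 reads and behind genes with no end peak. The A-rich peaks rise to 30.9 per Mb at 5 to 6 kb, where the background behind genes with strong end peaks falls from 0.94 to 0.505 reads.

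Peaks past the end followed genes that were themselves detected at the end. Of the 3714 members, 3255 lay behind a gene with an end peak, that is a peak from 200 bp before to 600 bp after 1 of its annotated transcript ends, or 87.6%. Where such windows of different genes overlapped on a strand, a peak was credited to 1 gene only. A gene counted as having no end peak can therefore still have a peak in its window. Genes counted in this way were 4106 of the 11629 with sequence that met the rule, and held 27.6 Mb of it. The density behind them was 16.6 members per Mb, against 49.5 per Mb over all genes. A member was found behind 8.18% of 4106 genes with no end peak (7.38% to 9.06%), 14.99% of 874 genes with an end peak of 1 to 9 reads (12.8% to 17.5%), 27.8% of 2282 with 10 to 19 reads (25.98% to 29.7%), 33.6% of 3452 with 20 to 39 reads (32.0% to 35.2%) and 36.6% of 915 with 40 reads or more (33.6% to 39.8%). Genes with at least 20 reads exceeded genes with none by 26.1 points (24.4 to 27.7), whereas the last 2 of these steps had intervals that overlapped. The local background was also higher behind genes with strong end peaks, as given above, and its part in these shares was not tested. Per Mb, A-rich peaks were 8.41 times (6.96 to 10.2) and signal peaks 7.31 times (5.79 to 9.35) as dense behind genes with at least 20 reads as behind genes with none. Peaks with neither feature were 2.49 times as dense (2.15 to 2.89), an interval below both of the others. At a −log10 q of 20 or more the difference between genes shrank to 0.778 points, with 96 members left in all.

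Past the end, peaks were usually lower than the peak at the end. The median ratio of the pileup of a member to that of the strongest end peak of its gene was 0.405, with 0.462 for signal, 0.356 for A-rich and 0.438 for other peaks. The member was the higher of the pair in 222 of 3255 cases, or 6.82%. MACS2 by default counts a read position once per strand, so these ratios are of read positions and give no share of transcripts.

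The strongest members lay behind genes of unrelated function. Leading the signal peaks was one 1520 bp past the end of DDRGK1 (ENSG00000198171), an endoplasmic reticulum protein of the UFM1 conjugation pathway. It lay at chr20:3188743-3188915 and had 43 reads over a background of 1.53 and a −log10 q-value of 42.4, with 30 reads at the annotated end. ASS1, which makes argininosuccinate in the urea cycle, had 41 reads 1010 bp past its end and 50 at the end. DCP1B, a subunit of the mRNA decapping complex, had 31 reads 6352 bp past its end and 25 at the end. The only A-rich peak among the 15 strongest belonged to ASCC1, a subunit of a transcriptional coactivator and alkylation repair complex, with 37 reads at 3842 bp and 7 A in 10 bases.

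Of these 15 peaks, 10 had neither feature on the strand of the gene. The peak 3763 bp past TMEM207, a membrane protein gene with no end peak, had 40 reads and was A-rich on the opposite strand. HUS1, part of the checkpoint clamp that is loaded at damaged DNA, had a peak of 40 reads at 7901 bp with a signal on the opposite strand, and its summit lay in the RefSeq span of PKD1L1. NOM1, a nucleolar protein gene, had 39 reads at 4360 bp, likewise with a signal on the opposite strand. ZNF669, a zinc finger gene, had 41 reads at 1839 bp against 26 at its end, and D2HGDH, the D-2-hydroxyglutarate dehydrogenase gene, had 30 reads at 3704 bp against 19 at its end, both with neither feature on either strand. The peak 8639 bp past MMD2 had 26 reads and lay inside the longer RefSeq span of MMD2 itself.

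Several of the strongest peaks matched transcripts made elsewhere. The peak of 24 reads 8583 bp past PLEKHA5 matched BCYRN1, a short non-coding RNA of neurons with an A-rich middle part, at 99.2% identity. The 39 reads 9476 bp past the olfactory receptor gene OR6C65 matched PHC1 at 100% and lay on PHC1P1, and the 26 reads 7562 bp past PPP1R36 matched NUP50 at 99.1% and lay on NUP50P1. Neither OR6C65 nor PPP1R36 had an end peak. The member with the highest −log10 q-value of all, 53.9 with 67 reads, lay 1827 bp past AMPD3, within reach of genes on both strands, and matched the mitochondrial ribosomal RNA MT-RNR1 at 97.6%. It fell outside the rule for naming and is named because its value was seen. Whether reads at such places came from the other copy was not tested.

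Over all members, 2901 matched no transcript of another gene, or 78.1%, 262 matched transcripts of 1 to 9 other genes and 551 those of 10 or more. Matches were rare among signal peaks, of which 92.3% had none (90.5% to 93.9%), and frequent among A-rich peaks, of which 67.0% had none (64.6% to 69.3%) and 24.4% matched 10 or more genes. Without all matching members the difference in signals between the strands was 25.2 points and that in A-rich edges 27.6 points. RefSeq, which draws some genes longer than GENCODE, placed 620 members inside a gene, 259 of them inside the same gene, or 6.97%. The share inside the same gene was 9.56% for signal peaks (7.85% to 11.6%) and 6.62% for A-rich peaks (5.49% to 7.97%).

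Where a signal peak exceeded its own end peak, the annotated end had the lower pileup of the 2, counted in read positions and not in transcripts. This held for 63 of 786 signal peaks assigned on 1 strand. It was not particular to signal peaks. With members on both strands included, 8.73% of signal peaks (7.03% to 10.8%) exceeded the end peak. The share was 9.36% of peaks with neither feature (7.67% to 11.4%) and 3.98% of A-rich peaks (3.08% to 5.12%). STAM, a sorting protein of the endosome, led with 25 reads 7385 bp past its end and 11 at the end. ADAM10, the protease that cuts Notch receptors and the amyloid precursor protein, had 36 reads at 1673 bp and 16 at the end. PRDM12, a regulator of sensory neuron identity, had 16 reads at 7345 bp and 8 at the end. HSD17B7, an enzyme of cholesterol synthesis, had 12 reads at 1505 bp and 6 at the end.

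DENND2A, a regulator of Rab GTPases, had 19 reads at 1758 bp and 10 at the end. EDA2R, a receptor of the tumour necrosis factor family, had 22 at 1166 bp and 13 at the end. ZNF66 had 33 reads against 16 at its end, ZNF354B 28 against 15 and ZNF724 26 against 15. The intervals of ZNF66 and of ACP3, the prostatic acid phosphatase gene with 9 reads against 5, matched transcripts of 46 and 103 other genes, so the place of their reads is uncertain.

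More than 1 peak followed 826 of the 2596 genes, or 31.8% (30.1% to 33.6%), while 1770 genes had 1, and 47 had 4 or more. The highest number was 6, reached by 3 genes. DDX1, an RNA helicase gene next to MYCN on the short arm of chromosome 2, had 6 between 2914 and 9437 bp past its end (chr2:15591178-15634346, plus strand), with 27, 16, 16, 21, 33 and 21 reads in order of distance and 63 at the end. Signal peaks were 3 of these, including the tallest, 9127 bp away. The local background at these 6 was 2.4 to 2.78 reads, against a median of 0.6 for all members.

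RRM2, the small subunit of ribonucleotide reductase, had 34, 13, 18, 11, 14 and 9 reads at 1283, 1724, 4280, 5257, 7415 and 9331 bp, with 30 at the end. The first 2 were A-rich, with 8 and 10 A in 10 bases, the first of them also with AATAAA upstream of the edge, and the last 2 were signal peaks. BCAS2, a spliceosome protein, had 19, 15, 15, 15, 14 and 7 reads from 821 to 9653 bp, of which 4 were signal peaks, and 46 at the end. The tallest peak was the nearest one in BCAS2 and RRM2 and the fifth in order of distance in DDX1.

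Among the next genes, FIGNL1, an ATPase of homologous recombination, had 5 peaks of 11 to 25 reads, the tallest a signal peak at 6753 bp. GTF3C6, a subunit of the RNA polymerase III factor TFIIIC, had 5 of 13 to 24 reads, 3 with a signal and 2 A-rich. ZNF695 had 5 of 15 to 23 reads and no end peak credited to it. ZNF543 had 5 of 6 to 20 reads, none with a signal or an A-rich edge on the strand of the gene. ZNF669, HUS1 and DHX37, an RNA helicase of ribosome assembly, had 4 each, and the highest summed −log10 q of the genes with 4. The summits of all 4 peaks past HUS1 lay in the RefSeq span of another gene, PKD1L1.

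**Figure D4:**
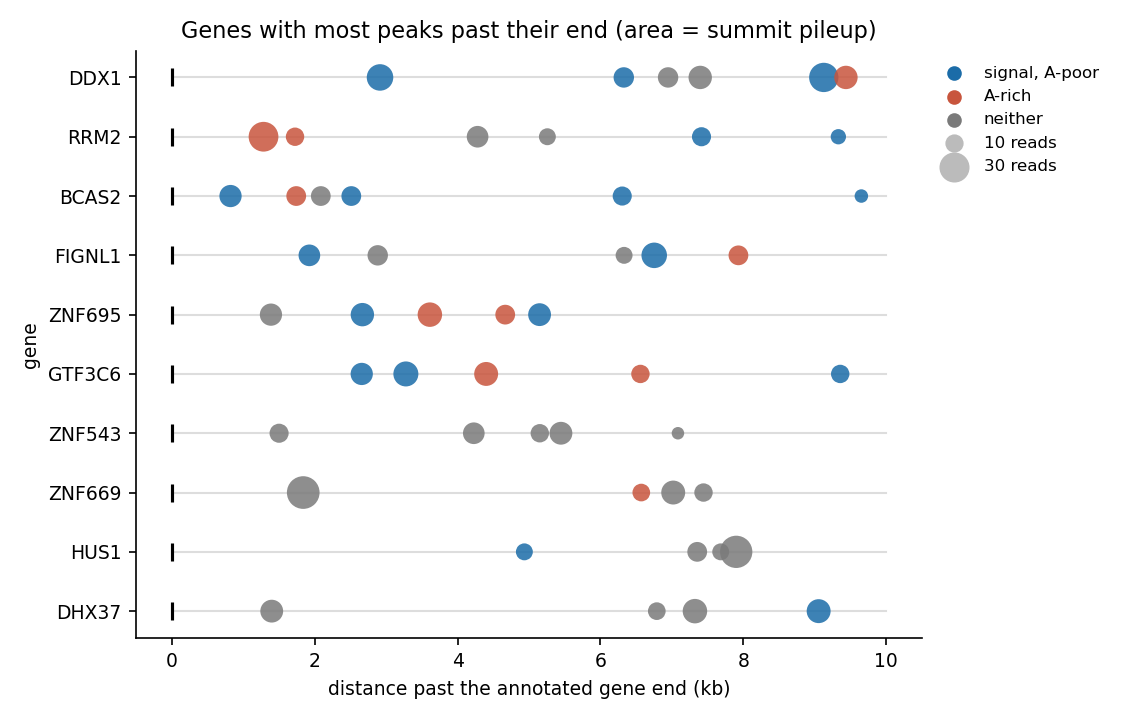
Peaks past the end of the 10 genes with most of them (ties at 4 peaks broken by the summed −log10 q), by distance in kb from the annotated end (black bar at 0), with the area of each circle in proportion to the summit pileup and its colour giving the class. DDX1, RRM2 and BCAS2 each have 6, and the 5 peaks of ZNF543 are all without a feature. The 4 peaks past HUS1 lie in the RefSeq span of PKD1L1.

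The share of genes with a peak past the end was read for each gene list, against 22.3% of all genes. Intervals excluded this share for zinc finger genes, adrenergic transcription factors and cytosolic ribosomal protein genes, and included it for the other lists. Median end peaks were 29 reads for cleavage factors, 26 for transcriptional kinases and cyclins, 28 for homologous recombination genes and 35 for both neuronal lists. Of all genes with an end peak of 20 to 39 reads, 33.6% had a member. C2H2 zinc finger genes, a large family of DNA-binding regulators with many members on chromosome 19, had one behind 126 of 279 genes, or 45.2% (39.4% to 51.0%). Their end peaks were only slightly taller, with a median of 18 reads against 14 for all genes, and the excess was present at each strength of the end peak. With no end peak 26.8% of zinc finger genes and 7.995% of other genes had a member, a difference of 18.8 points (7.67 to 34.0), with 1 to 19 reads 47.4% and 23.4%, a difference of 24.0 points (14.9 to 33.2), and with 20 reads or more 49.2% and 33.8%, a difference of 15.4 points (6.64 to 24.2). Of their 206 members 81 were signal peaks, or 39.3% (32.9% to 46.1%), against 24.8% of the members behind other genes (23.4% to 26.3%). ZNF620 had 33 reads at 2682 bp against 15 at its end, and ZNF354C had a signal peak of 31 reads at 2249 bp and no end peak.

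Transcription factors that define adrenergic neuroblastoma cells had a member behind 11 of 16 genes, or 68.8% (44.4% to 85.8%), with a median end peak of 31.5 reads, and 33.6% of all genes with an end peak of 20 to 39 reads had one. HAND2, a regulator of sympathetic neurons, had 42, 20, 34 and 35 reads at 632, 3948, 4561 and 5338 bp, against 46 at its end, 1 of them with a signal. The background at these peaks, 5.52 to 7.80 reads, was the highest of all members. MYCN, the driver oncogene, had a signal peak of 20 reads 8231 bp past its end, where 73 were counted, and its interval matched a transcript of NUAK2 at 92.1%. KLF7, a zinc finger regulator of neurons, had an A-rich peak of 16 reads at 4171 bp with 10 A in 10 bases.

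Cleavage, polyadenylation and termination factors had a member behind 6 of 14 genes, or 42.9% (21.4% to 67.4%), and 8 of their 12 members were A-rich, against 41.9% of all members, a difference that was not tested on so few. PAPOLA, the poly(A) polymerase, had 15 reads at 8878 bp with 10 A in 10 bases, and CPSF2, a subunit of the cleavage complex, had a signal peak of 12 reads at 3857 bp. CPSF6 and WDR33 had A-rich peaks of 18 and 9 reads. Transcriptional kinases and cyclins had one behind 5 of 11 genes, or 45.5% (21.3% to 71.99%), with 4 signal peaks among 6 members, against 25.6% of all members. CDK12, 1 of the 2 targets of the knockdown, had a signal peak of 11 reads 5768 bp past its end and 22 at the end, both over all libraries. CCNT1, a cyclin partner of CDK9, had a signal peak of 16 reads at 854 bp with 19 at the end. CCNL1 had a signal peak of 17 reads at 2999 bp, inside its own RefSeq span, and CDK8 an A-rich peak of 7 reads at 8101 bp.

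Homologous recombination and Fanconi anaemia genes had a member behind 5 of 17 genes, or 29.4% (13.3% to 53.1%). XRCC2 had an A-rich peak of 21 reads at 5002 bp, while the peaks of RAD54B and BRIP1 had 7 and 6 reads. Neuronal cytoskeleton genes had one behind 7 of 22 genes, or 31.8% (16.4% to 52.7%), and 7 of their 8 members were A-rich, against 41.9% of all members, BASP1, STMN3, STMN4 and KIF5C among them with 6 to 14 reads. Genes of ELAVL and other neuronal RNA-binding proteins had one behind 6 of 17, or 35.3% (17.3% to 58.7%). MSI2 had a signal peak of 31 reads at 1590 bp, inside its RefSeq span, and PTBP2 one of 13 reads with neither feature at 5435 bp, and the peaks of NOVA2 and ELAVL1 had 6 and 9 reads.

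Cytosolic ribosomal protein genes, whose end peaks had a median of 52.5 reads, had a member behind 15 of 40 genes, or 37.5% (24.2% to 52.97%), close to the 36.6% of all genes with an end peak of 40 reads or more. RPL13 had 45 reads at 3243 bp with neither feature, RPL21 24 at 2913 bp with neither feature, RPS24 an A-rich peak of 12 at 5802 bp and RPS15A a signal peak of 15 at 5834 bp. Many processed copies of these genes lie in the genome, although none of these 4 intervals matched a transcript of another gene. Replication-dependent histone genes, whose messages end in a stem-loop and not in a poly(A) tail, had one behind 8 of 29, or 27.6% (14.7% to 45.7%). Signal peaks were 0 of their 9 members, and likewise 0 of 8 behind neuronal cytoskeleton genes and 0 of 8 behind respiratory chain genes, against 25.6% of all members, differences that were not tested. H2AC25, H3C12, H2BC26 and H2AC12 had 9, 13, 6 and 9 reads. Nuclear-encoded respiratory chain genes had one behind 4 of 25, or 16.0% (6.40% to 34.7%), an interval that includes the 22.3% of all genes. Their end peaks had a median of 40 reads. Among all genes the share was 33.6% with an end peak of 20 to 39 reads and 36.6% with 40 reads or more. The latter lies above the interval, and the difference was not tested. NDUFS5, UQCRFS1 and COX7C had members of 22, 16 and 14 reads.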

How the data were processed

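Poly(A) 3′-end libraries (QuantSeq 3′ mRNA REV) of the 10 IMR-32 samples were sequenced as single reads. The authors trimmed the reads, mapped them to GRCh38 with STAR 2.5.1b, reduced the libraries, which came from different batches, to the smallest size, merged them and called peaks once with MACS2 2.1.1 with reads extended to 100 bp. The paper then discarded peaks that lacked all of 12 hexamers in the 100 bp upstream and had a 25-base A stretch, with up to 3 mismatches, within 50 bp downstream. Whether the list used here precedes or follows that step was not checked, so its part in the A-rich shares is not known. The deposited fold is the ratio of the summit pileup plus 1 to the local background plus 1 of the same merged reads. The deposited p-value and q-value are given as −log10 of a Poisson test of that pileup, which ranks peaks and tests no difference between groups. The deposited score, 10 times the −log10 q-value as a whole number, was not used. Neither batches nor groups can be told apart in the merged list, and the depth per library is not known.

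From the fold and the p-value the whole-number pileup and the background were recovered, with a largest miss of 0.000146 in the −log10 p-value. Summits on chromosomes 1 to 22, X and Y were placed against GENCODE 44 (the paper used release 27) on the UCSC copy of GRCh38, which is the build of the authors. The 3′ edge, the end of the interval for plus-strand genes and the start for minus-strand genes, was taken as the cleavage side. AATAAA and ATTAAA were searched on the strand of the gene and on the opposite strand, and over all positions that met the rule. A-rich means at least 7 A in the 10 bases after the edge. Shares have Wilson, differences Newcombe, densities exact Poisson and ratios exact conditional intervals, all at 95%, from SciPy 1.17.1 under Python 3.11.15. Intervals were compared with GENCODE transcripts of other genes by BLAST 2.17.0 (at least 90% identity over at least 90% of the interval) and summits with RefSeq gene spans of GRCh38.p14. The scripts were tested on simulated data.

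The genes named are those of the 15 members of highest q-value assigned to 1 gene, the 10 genes with most members (ties by summed −log10 q-value), the 10 signal peaks that most exceeded the end peak of their gene, and up to 4 genes for each of 10 gene lists. Some of these genes and sequences are not reported here. The members, lists and limits were chosen with earlier results of these data known. Alternatives were other q-value limits, merged neighbours, 1-strand members only, the peak centre, a limit of 5000 bp, fewer gene types, other motif sets, windows and A limits, the summit as position and the q-value of the end peak. The removal of members with copies or inside RefSeq genes, and the limit of 15 reads, were added after the data were seen.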

Additional observations from a re-analysis of the deposited data

How the results depend on the processing

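Of 52 alternatives, 46 kept the direction and the side of the limit of their result, or a count within 1.5 times. The density ratio to sequence far from genes ranged from 4.47 to 6.83 over its alternatives. The number of members was 96 at a −log10 q of 20 or more and 1909 with a distance limit of 5000 bp, and the median pileup was 11 and 28 reads at −log10 q limits of 5 and 20, all by construction of those limits. The ratio of A-rich density at 5 to 10 kb to that at 0.6 to 5 kb was 1.13 (0.371 to 3.47) at a −log10 q of 20 or more, with fewer peaks, and reversed to 0.63 with a pileup of at least 15 reads. Its main value is thus carried by members under 15 reads, and the part of the local background in it was not tested. Taking the summit in place of the 3′ edge lowered the difference between the strands to 1.27 points for signals and 1.78 points for A-rich edges, since the motifs lie at the edge, and the long A stretch lowered the A-rich difference to 6.17 points. At −log10 q of 20 or more that difference was 11.5 points, the difference in signals 37.5 points and the difference between genes with strong and with no end peaks 0.778 points. No paired analysis was possible because the 10 libraries were merged before peaks were called and no column carries a replicate number. No peak of any height can be assigned to a condition, since the libraries were merged.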

Other observations

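Among the autosomes, members stood at 65.0 per Mb of eligible sequence on chromosome 2 (58.2 to 72.4), 63.2 on chromosome 9 (54.3 to 73.1) and 60.3 on chromosome 19 (52.3 to 69.1), the 3 highest, and at 36.9 on chromosome 11 (31.5 to 42.9), 33.9 on chromosome 21 (23.1 to 48.2) and 28.9 on chromosome 18 (20.8 to 39.001), the 3 lowest. Among 227 windows of 10 Mb with at least 150 kb of eligible sequence, chosen after the data were seen, the median was 49.4 per Mb. The highest was the window from 10 to 20 Mb on chromosome 2, which holds RRM2, DDX1 and MYCN, with 23 members behind 10 of 27 genes, or 130.6 per Mb (82.8 to 196.02). The next highest, from 40 to 50 Mb on chromosome 10, had 102 per Mb (65.98 to 150.5), within the interval of the first. In the window on chromosome 2 the median pileup was 18 reads and the median local background 1.56 reads, against 9 and 0.6 over all members. IMR-32 cells carry extra copies of MYCN, and the part of DNA copy number in these values was not tested.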
